A study of Mus musculus with 464 samples.

Results

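Collagen folding and crosslinking enzymes are described here by 8 genes: Serpinh1, P4ha2, P4hb, Plod1, Plod2, Plod3, Fkbp10 and Fkbp14. They were taken by name from a table of 21973 genes, and all 8 were in it. The data are transcriptomes of single cells from the mouse embryonic stem cell line R1, kept before differentiation in medium with 15% serum replacement and LIF at 1000 U/ml. Hanging drops of 48 hours gave embryoid bodies, which then spent 4 days in retinoic acid at 0.5 mM, as the labels give that dose. All cells share this treatment and 1 label, no separate cultures are named, and so no untreated group, replicate culture or p-value exists here. The comparison is between endoderm-marker cells and neural-marker cells of this 1 sample.

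Collagen chains are built in the endoplasmic reticulum (ER), where enzymes modify proline and lysine residues and chaperones hold the chains until they have folded into their helix. Hydroxyproline stabilises the helix, and hydroxylysine carries sugars and later takes part in the crosslinks between secreted molecules. In the mouse embryo the parietal endoderm is known for making a thick basement membrane rich in type IV collagen, whereas neural progenitors secrete far less of it.

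A cell stayed in if it had 2000 or more genes above 0 and if mitochondrial transcripts made up no more than 20% of it, and 6 cells were removed. A gene was called detected at 1 TPM (a length-corrected share of a cell's transcripts) or more. An endoderm-marker cell had at least 5 of 10 endoderm genes (among them Gata4, Gata6, Sox17, Sox7, Foxa2, Hnf4a, Dab2, Cubn and Amn) and fewer than 5 of 10 neural genes (Pax6, Sox1, Sox2, Sox3, Fabp7, Msi1, Pou3f2, Elavl3, Tubb3 and Dcx) detected. A neural-marker cell met the reverse. This gave 59 endoderm-marker cells (12.9% of kept cells, exact 95% interval 9.95 to 16.3) and a neural-marker class of 69.7% of kept cells (65.2 to 73.8). Another 50 cells had at least 5 genes of both lists and 30 had neither. The classes are ranges of a marker count, and 75 kept cells had 4 or 5 markers of either list.

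All 8 held-out endoderm genes, among them Pdgfra and Krt8, were higher in endoderm-marker cells, and all 8 held-out neural genes, among them Hes5 and Nes, were lower. Endoderm-marker cells had a median of 6122 genes above 0 and neural-marker cells 6812. Of 10 mesenchyme markers, 8 were detected in under 10% of endoderm-marker cells, 5 of them in no cell, and the median of their summed level was 0 in both classes (0 to 705.8 TPM in endoderm-marker and 0 to 71.7 TPM in neural-marker cells). Of 8 endothelium and blood markers 6, and all 8 trophoblast markers, were also under 10% of endoderm-marker cells. Exceptions, picked out after their values were seen, were 2 markers called higher in endoderm-marker cells. The mesenchyme gene Twist1 was detected in 18.6% of endoderm-marker and 2.51% of neural-marker cells, and the endothelial gene Tek in 10.2% and 1.25% in that order. Pdgfrb was in 11.9% of endoderm-marker and 2.82% of neural-marker cells and Cdh5 in 11.9% and 0% (upper 95% limit 1.15%) in that order, and neither was called. The part of such cells in the results was not tested. Columns fall into 2 sets by name, and 55 pairs of near copies (correlation 0.95 to 0.99), with 1 column in each set, took up 24.02% of the kept columns. Distinct cells, with 1 column of each pair, numbered 52 in the endoderm class.

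Of the 8 enzyme genes, 7 had a mean at least 2-fold higher in endoderm-marker cells than in neural-marker cells, and Fkbp14 did not. A gene was called by a rule of size: a mean at least 2-fold apart, detection in at least 10 cells, and no overlap between the exact 95% intervals of its detected share in each class. By this rule 6 members were higher and 0 were lower, whereas 11.8% of the 13315 genes tested were higher and 19% lower. The members, and the pathway lists used below, were chosen with earlier results of these data known. Their counts beside such shares are therefore descriptions and not an independent excess. By the 2-fold condition alone 7 members were higher, against 18.1% of genes. The median log2 fold of endoderm-marker over neural-marker cells was 3.21 for the 8 members and -0.32 for all genes tested. Within each column set the same 6 members met the rule. Intervals cover counting error only, and repeated cells make them too narrow.

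**Figure D1:**
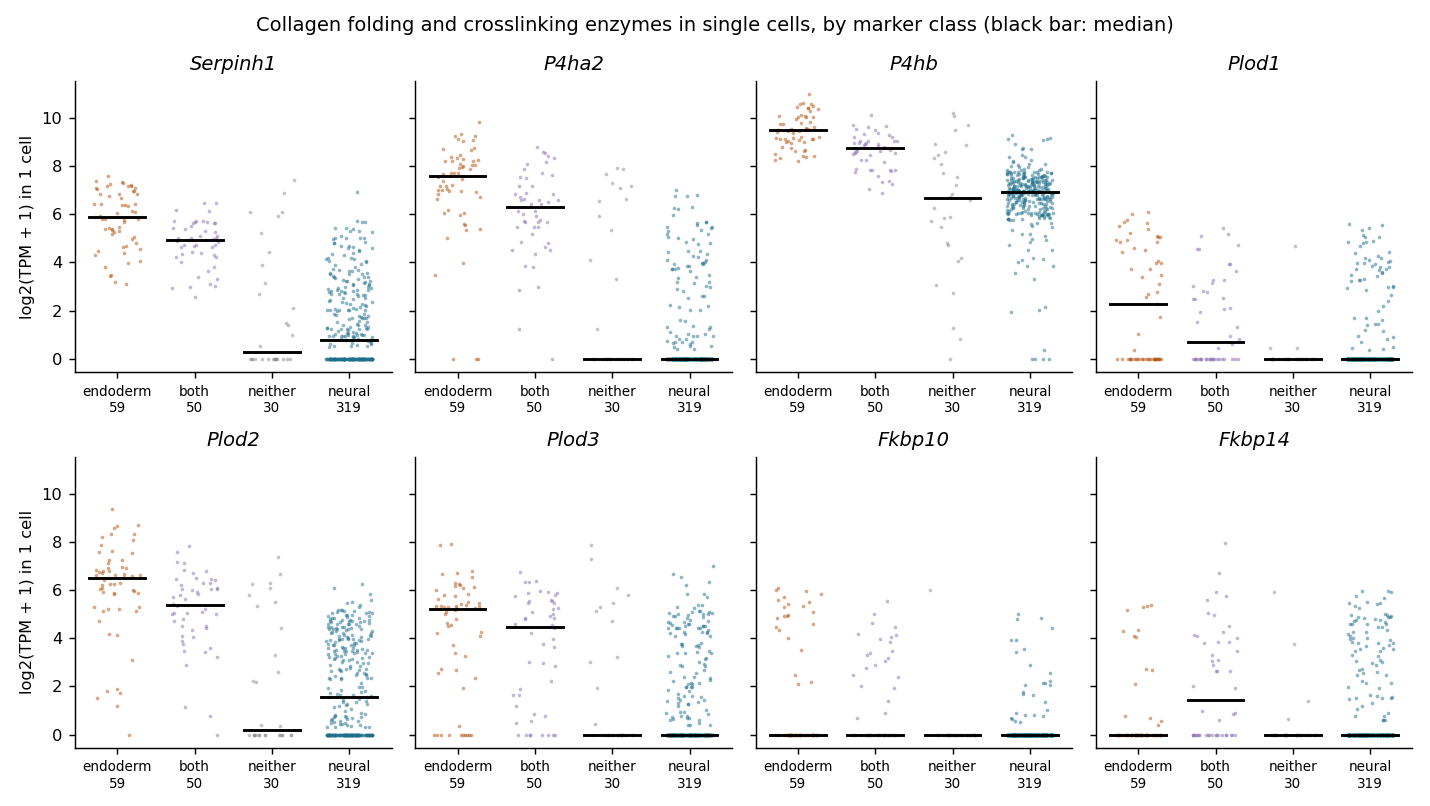
Each point is 1 cell and the vertical axis is log2(TPM + 1); columns are endoderm-marker cells (59), cells with both marker sets (50), cells with neither (30) and neural-marker cells (69.7% of kept cells), with black bars at the medians. P4hb is above 0 in nearly all cells and shifts as a whole, while the other genes differ both in how many cells hold them and in their level, and Fkbp14 shows no such difference between endoderm-marker and neural-marker cells.

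Serpinh1 encodes HSP47, the collagen-specific chaperone of the ER (chr7:99345375-99353239, GRCm38.p6). It ran from 7.59 to 190.1 TPM in endoderm-marker cells, with a median of 57.7, and from 0 to 121.5 TPM in neural-marker cells, with a median of 0.74. All 59 endoderm-marker cells had it (100%, 93.9 to 100) and 45.1% of neural-marker cells did (39.6 to 50.8). The mean was 13.7-fold higher, at 73.1 TPM in endoderm-marker and 5.33 TPM in neural-marker cells. The ranges overlapped, but only 1 neural-marker cell lay above the endoderm median.

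P4hb encodes protein disulfide isomerase, which is also the beta subunit of prolyl 4-hydroxylase, the enzyme that hydroxylates proline (chr11:120560298-120573253). It was the most abundant member, running from 293.8 to 2020 TPM in endoderm-marker cells (median 715) and from 0 to 627 TPM in neural-marker cells (median 121.3). The mean was 5.94-fold higher, at 790.8 TPM in endoderm-marker and 133.1 TPM in neural-marker cells. P4hb was detected in 100% of endoderm-marker and 98.4% of neural-marker cells, so the condition on detected shares could not be met and the gene was not called. The levels were nonetheless nearly separate: 14 neural-marker cells (4.39%) lay above the lowest endoderm-marker cell. In 99.2% of all possible pairs of an endoderm-marker and a neural-marker cell, the endoderm-marker cell had the higher P4hb value.

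P4ha2 encodes an alpha subunit of the same prolyl 4-hydroxylase, the subunit that holds the catalytic site (chr11:54100924-54131668). It had the largest fold of the 8 members, 39.6. In endoderm-marker cells it ran from 0 to 916.8 TPM with a median of 189.6, and in neural-marker cells from 0 to 129.4 TPM with a median of 0. It was detected in 94.9% (85.9 to 98.9) of endoderm-marker and 22.6% (18.1 to 27.6) of neural-marker cells. No neural-marker cell reached the endoderm median, and 3 endoderm-marker columns, which hold 2 distinct cells, lacked the gene.

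The balance of the alpha subunits differed between the classes. In endoderm-marker cells P4ha2 averaged 228.4 TPM and P4ha1, the more widely expressed alpha subunit, 181.1 TPM, so that P4ha2 made up 55.6% of the summed TPM of the 3 alpha genes and P4ha1 44.1%. In neural-marker cells the means were 5.76 TPM for P4ha2 and 31.5 TPM for P4ha1, and P4ha2 made up 14.8%. Cell by cell, P4ha2 was the highest alpha subunit in 31 of 58 endoderm-marker cells with any of them (53.4%, 39.9 to 66.7) and in 21 such neural-marker cells (7.87%, 4.93 to 11.8). P4ha3, the remaining alpha subunit, was the highest in 0 of 58 endoderm-marker cells (upper 95% limit 6.16%) and in 10 neural-marker cells (3.75%, 1.81 to 6.78).

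The 3 Plod genes encode lysyl hydroxylases: LH1 from Plod1, LH2 from Plod2, which acts on the telopeptides at the chain ends and so directs the kind of crosslink, and LH3 from Plod3, which also adds sugars to hydroxylysine. Plod2 (chr9:92539636-92608428) led in both classes. It ran from 0 to 650.6 TPM in endoderm-marker cells (median 89.9) and from 0 to 74.4 TPM in neural-marker cells (median 1.90), with means of 119.02 TPM in endoderm-marker and 8.32 TPM in neural-marker cells and a fold of 14.3. It was detected in 98.3% (90.9 to 99.96) of endoderm-marker and 53.6% (47.96 to 59.2) of neural-marker cells. All but 1 endoderm-marker cell therefore held it, and no neural-marker cell exceeded the endoderm median.

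Plod3 (chr5:136987019-136996646) ran from 0 to 238.5 TPM in endoderm-marker cells (median 36.3) and from 0 to 127.2 TPM in neural-marker cells (median 0). Its mean was 6.22-fold higher, at 40.5 TPM in endoderm-marker and 6.51 TPM in neural-marker cells, and its detected shares were 81.4% (69.1 to 90.3) and 32.9% (27.8 to 38.4) in that order. Some neural-marker cells were high: 12 of them exceeded the endoderm median.

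Plod1 (chr4:147909753-147936776) was the least abundant of the 3 in both classes. It ran from 0 to 66.4 TPM in endoderm-marker cells (median 3.89) and from 0 to 47.7 TPM in neural-marker cells (median 0). It was detected in 54.2% (40.7 to 67.3) of endoderm-marker and 16.9% (12.98 to 21.5) of neural-marker cells, and its mean was 5.31-fold higher, at 13.6 TPM in endoderm-marker and 2.55 TPM in neural-marker cells. Much of the difference lay in how many cells held it: among cells with Plod1 detected, the mean was 25.1 TPM in endoderm-marker and 15.01 TPM in neural-marker cells.

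The order Plod2, Plod3, Plod1 held in the means of both classes, with a larger lead of Plod2 in endoderm-marker cells. There Plod2 made up 68.7% of the summed TPM of the 3 genes, Plod3 23.4% and Plod1 7.86%. In neural-marker cells the shares were 47.9%, 37.5% and 14.7% in the same order of genes. Plod2 was the highest of the 3 in 72.9% (59.7 to 83.6) of endoderm-marker and 54.7% (48.1 to 61.3) of neural-marker cells that had any of them, and these intervals overlap.

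Fkbp10 and Fkbp14 encode FKBP65 and FKBP22, prolyl isomerases of the ER that bind procollagen. In people, loss of FKBP10 causes a brittle bone disease and loss of FKBP14 a form of Ehlers-Danlos syndrome. The mouse genes parted here.

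Fkbp10 (chr11:100415694-100424840) ran from 0 to 67.5 TPM in endoderm-marker cells and from 0 to 31.1 TPM in neural-marker cells, with a median of 0 in both. It was detected in 38.98% (26.5 to 52.6) of endoderm-marker and 6.27% (3.87 to 9.52) of neural-marker cells, and its mean was 20.5-fold higher, at 12.8 TPM in endoderm-marker and 0.62 TPM in neural-marker cells. A minority of endoderm-marker cells thus carried all of the signal, at a mean of 32.9 TPM in the 23 cells that had it.

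Fkbp14 (chr6:54577602-54597344) was detected in 18.6% (9.69 to 30.9) of endoderm-marker and 24.5% (19.8 to 29.6) of neural-marker cells. It ran from 0 to 40.4 TPM in endoderm-marker cells and from 0 to 60.4 TPM in neural-marker cells, with means of 4.02 and 4.46 TPM and a fold of 0.90. The intervals of the shares overlap, and the direction was not fixed: over the alternative settings the fold ran from 0.78 to 2.53, with the highest value where markers had to reach 5 TPM.

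**Figure D2:**
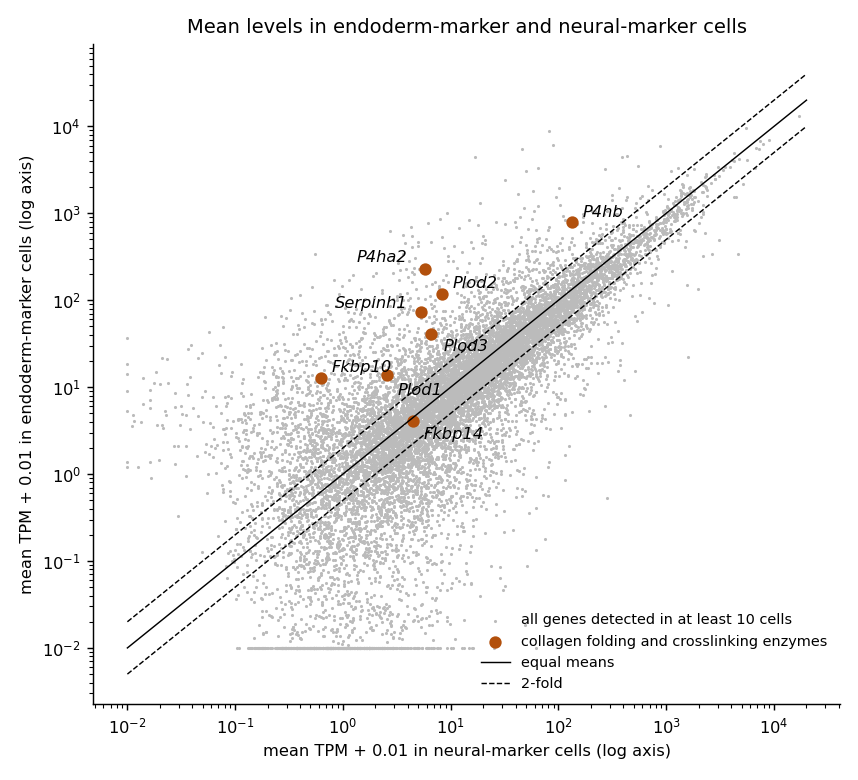
Each grey point is 1 of the genes detected in at least 10 endoderm-marker or neural-marker cells, with the mean TPM + 0.01 in neural-marker cells on the horizontal and in endoderm-marker cells on the vertical log axis; orange points are the 8 members. P4hb sits highest at 790.8 TPM, 7 members lie above the upper 2-fold line, and Fkbp14 lies near the line of equal means.

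The stretches of 250 bases before the transcription start are shown for the member with the largest fold, the most abundant member, the chaperone, and the member that did not differ. RefSeq (GRCm38.p6) gave such stretches for 6 members, with 2 starts for Fkbp14. Capitals mark matches on either strand to ACGTG, the core shared by hypoxia and unfolded protein response elements, and to CCAAT, the NF-Y box. The stretches run 5′ to 3′ along each gene, from chr11:54100674-54100923 (plus strand) for P4ha2, chr11:120573254-120573503 (minus) for P4hb, chr7:99353240-99353489 (minus) for Serpinh1 and chr6:54593175-54593424 (minus) for Fkbp14.
P4ha2: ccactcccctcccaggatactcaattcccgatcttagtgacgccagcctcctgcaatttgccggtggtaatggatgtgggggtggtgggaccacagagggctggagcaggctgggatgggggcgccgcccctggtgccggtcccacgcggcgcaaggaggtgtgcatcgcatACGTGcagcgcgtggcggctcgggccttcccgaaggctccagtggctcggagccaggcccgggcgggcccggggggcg
P4hb: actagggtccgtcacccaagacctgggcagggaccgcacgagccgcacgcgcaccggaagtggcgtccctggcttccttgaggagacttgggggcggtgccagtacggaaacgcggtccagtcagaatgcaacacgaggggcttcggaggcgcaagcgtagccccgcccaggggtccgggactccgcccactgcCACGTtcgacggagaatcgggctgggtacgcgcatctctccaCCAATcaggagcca
Serpinh1: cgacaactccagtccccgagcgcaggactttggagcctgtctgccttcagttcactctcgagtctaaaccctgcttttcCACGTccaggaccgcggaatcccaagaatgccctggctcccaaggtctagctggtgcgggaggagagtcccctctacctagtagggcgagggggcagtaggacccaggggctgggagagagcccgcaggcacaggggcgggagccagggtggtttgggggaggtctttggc
Fkbp14: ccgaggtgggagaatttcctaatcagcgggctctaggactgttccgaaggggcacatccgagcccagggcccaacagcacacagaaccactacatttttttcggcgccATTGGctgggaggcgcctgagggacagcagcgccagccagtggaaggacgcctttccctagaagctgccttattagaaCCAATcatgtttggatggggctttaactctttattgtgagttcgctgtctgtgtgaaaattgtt

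ACGTG was in 4 of the 7 member stretches (Serpinh1, P4ha2, P4hb and Plod3), and in 16.6% of all 32851 stretches of this length. It starts 78 bases before the start in P4ha2, 56 in P4hb and 54 in Plod3, and farthest upstream in Serpinh1. CCAAT was in 3 of the 7 (P4hb, Plod3 and 1 start of Fkbp14), and in 33.8% of all. The Fkbp14 stretch with CCAAT is the one shown, and it lies inside the gene span given above. The stretch at the other Fkbp14 start, chr6:54597345-54597594 (minus), had neither ACGTG nor CCAAT. The full ER stress response element (in 0.113% of all), a heat shock element (0.466%) and GATAA (22.6%) had no match in the 7 stretches. Plod1 had neither ACGTG nor CCAAT. A match describes the letters of the window and is not a site.

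Most cells of the endoderm class held most of the set at once. A median of 6 of the 8 members was detected in endoderm-marker cells (4 to 8) and of 3 in neural-marker cells (0 to 7). At least 6 were detected in 59.3% (45.7 to 71.9) of endoderm-marker cells and in 3.13% (1.51 to 5.69) of neural-marker cells. The summed level ran from 417.9 to 2825 TPM in endoderm-marker cells (median 1289) and from 0 to 729 TPM in neural-marker cells (median 149.97). P4hb dominates this sum, and without it the medians were 438.8 TPM in endoderm-marker and 27.9 TPM in neural-marker cells. Of the 59 endoderm-marker cells, 48 lay above the highest neural-marker cell.

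The wider collagen pathway moved with the members in part. Of 10 other collagen modification enzymes, 6 were higher in endoderm-marker cells and 0 lower, with a median log2 fold of 2.52 over the 9 tested. Over all genes tested 11.8% were higher and 19% lower. Crtap, the scaffold of the prolyl 3-hydroxylase complex, averaged 194.9 TPM in endoderm-marker and 9.05 TPM in neural-marker cells. P4ha1 averaged 181.1 and 31.5 TPM in that order of classes, P3h4, a partner of lysyl hydroxylase 1, 81.1 and 6.68 TPM, and P3h1, the prolyl 3-hydroxylase that binds Crtap, 43.9 and 4.05 TPM. Ppib, the cyclophilin of that complex, was singled out after its values were seen: it was detected in all cells of both classes, at 1493 TPM in endoderm-marker and 574 TPM in neural-marker cells. P3h3, also singled out afterwards, had 0.66 TPM in endoderm-marker and 1.63 TPM in neural-marker cells and was not called.

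Among the collagen chains, the type IV genes stood out. Col4a1 averaged 307.4 TPM in endoderm-marker and 4.68 TPM in neural-marker cells, and Col4a2 171.2 and 3.31 TPM in the same order. Both were detected in all 59 endoderm-marker cells. Of the 8 basement membrane collagen genes these 2 were higher and Col18a1 was lower, at 0.30 TPM in endoderm-marker and 4.97 TPM in neural-marker cells. Of 10 fibrillar collagen genes, Col27a1 was higher (3.40 against 0.54 TPM in neural-marker cells) and Col2a1, Col11a1 and Col5a2 were lower. Col1a1, Col1a2 and Col3a1, the main fibrillar chains of connective tissue, were detected in 0 of 59 endoderm-marker cells (upper 95% limit 6.06% each). Of 17 other collagen genes, Col6a1 was higher (14.4 against 0.06 TPM in neural-marker cells) and Col12a1 and Col26a1 were lower. Only 4 of the basement membrane, 6 of the fibrillar and 7 of the other collagen genes were detected in enough cells to be tested. The shares over all genes tested were 11.8% higher and 19% lower.

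Of 13 genes for collagen export and trimming, 12 were tested and 5 had a mean at least 2-fold up, as did 18.1% of all genes tested. By the rule of size 3 were higher and 0 lower, where 11.8% of all genes were higher and 19% lower. They were Creb3l1, an ER-bound transcription factor known to act on collagen genes (42.9 against 1.54 TPM in neural-marker cells), Sec24d, a coat protein of the vesicles that leave the ER (38.02 against 2.08 TPM), and Creb3l2, a relative of Creb3l1 (10.6 against 0.63 TPM). Of the 5 lysyl oxidase genes, whose enzymes form the crosslinks outside the cell, 2 were tested. Loxl2 was higher at 48.6 TPM in endoderm-marker and 2.49 TPM in neural-marker cells. Lox itself was detected in 0 of 59 endoderm-marker cells (upper 95% limit 6.06%) and in 0.313% of neural-marker cells (0.00794 to 1.73).

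**Figure D3:**
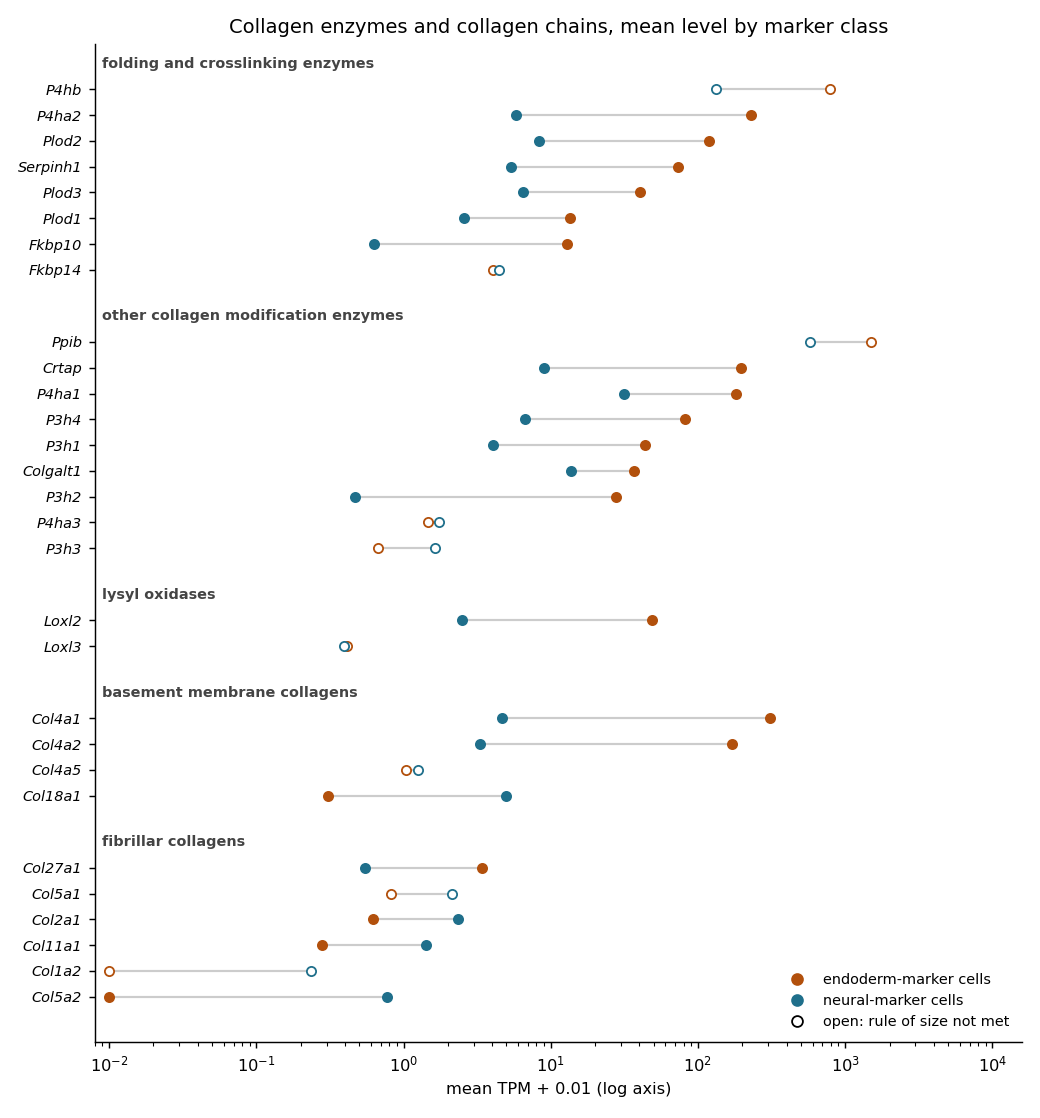
Mean TPM + 0.01 on a log axis for the genes detected in at least 10 cells, in endoderm-marker cells (orange) and neural-marker cells (blue), with open symbols where the rule of size was not met. The lines are long and point the same way for most modification enzymes, Loxl2, Col4a1 and Col4a2, while Col18a1 and several fibrillar chains lie higher in neural-marker cells.

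Other gene families, of which not all act in the ER, were mixed. Beside their counts, 11.8% of all genes tested were higher by the rule of size, 19% were lower and 18.1% were at least 2-fold up. Among 9 other FK506 binding proteins, 3 were higher: Fkbp11 (283.2 against 9.50 TPM in neural-marker cells), Fkbp9 (63.6 against 6.29 TPM) and Fkbp7 (29.9 against 6.21 TPM). Fkbp3, singled out after its values were seen, went the other way at 495.4 TPM in endoderm-marker and 1293 TPM in neural-marker cells, and was detected in all cells of both classes, so it was not called. Among 9 other protein disulfide isomerases and their oxidases, Pdia5 (145.8 against 5.86 TPM) and Txndc5 (94.2 against 25.8 TPM) were higher, and 6 had a mean at least 2-fold up. Among 14 ER chaperones and unfolded protein response genes, Xbp1 (283.6 against 52.8 TPM) and Dnajc3 (32.9 against 10.3 TPM) were higher. In that list 5 had a mean at least 2-fold up, and the median log2 fold was 0.88. The cytosolic heat shock genes had a median log2 fold of 0.06, with Hspb1 higher (496 against 20.6 TPM). The hypoxia genes had a median of -0.26, with Ndrg1 higher (72.1 against 1.25 TPM) and Slc2a1 lower (62.02 against 163.8 TPM).

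Cell to cell within the endoderm class, the members followed each other only weakly. The median Spearman correlation over the 28 member pairs was 0.11 across the 59 cells (-0.10 to 0.46) and 0.05 across the neural-marker cells. The highest pair was P4ha2 with P4hb, the subunits of one enzyme, at 0.46. Over the 52 distinct cells the median was 0.15 (-0.13 to 0.57), and P4ha2 with P4hb stood at 0.57. Across the 59 cells P4ha2 stood at 0.49 with Col4a1 and 0.41 with Col4a2. Serpinh1 stood at 0.41 with Col4a1 and 0.15 with Col4a2. With the number of genes above 0, Serpinh1 stood at -0.33, P4ha2 at -0.22, Col4a1 at -0.39 and Col4a2 at -0.26. The part of gene number in these correlations was not tested. Cells of 1 sample share their library preparation and may differ in depth, so these values are descriptions.

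Plod2 and P4hb each followed a different set of genes in these cells. Plod2 correlated with P4ha1 at 0.63 and with the summed hypoxia genes at 0.64, and with the summed ER chaperones at -0.01. P4hb correlated with the summed disulfide isomerases at 0.85, with the ER chaperones at 0.70 and with the hypoxia genes at -0.12. P4ha1 correlated with the hypoxia genes at 0.69. P4ha2 stood at 0.25 with the hypoxia genes and 0.54 with the disulfide isomerases. Over the 52 distinct cells Plod2 stood at 0.54 with P4ha1 and 0.58 with the hypoxia genes. There P4hb stood at 0.85 with the disulfide isomerases and 0.69 with the ER chaperones. Both PLOD2 and P4HA1 are known as targets of the hypoxia-inducible factor in human cells. The correlation of Plod2 with the number of genes above 0 was -0.08 and that of P4hb -0.23.

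**Figure D4:**
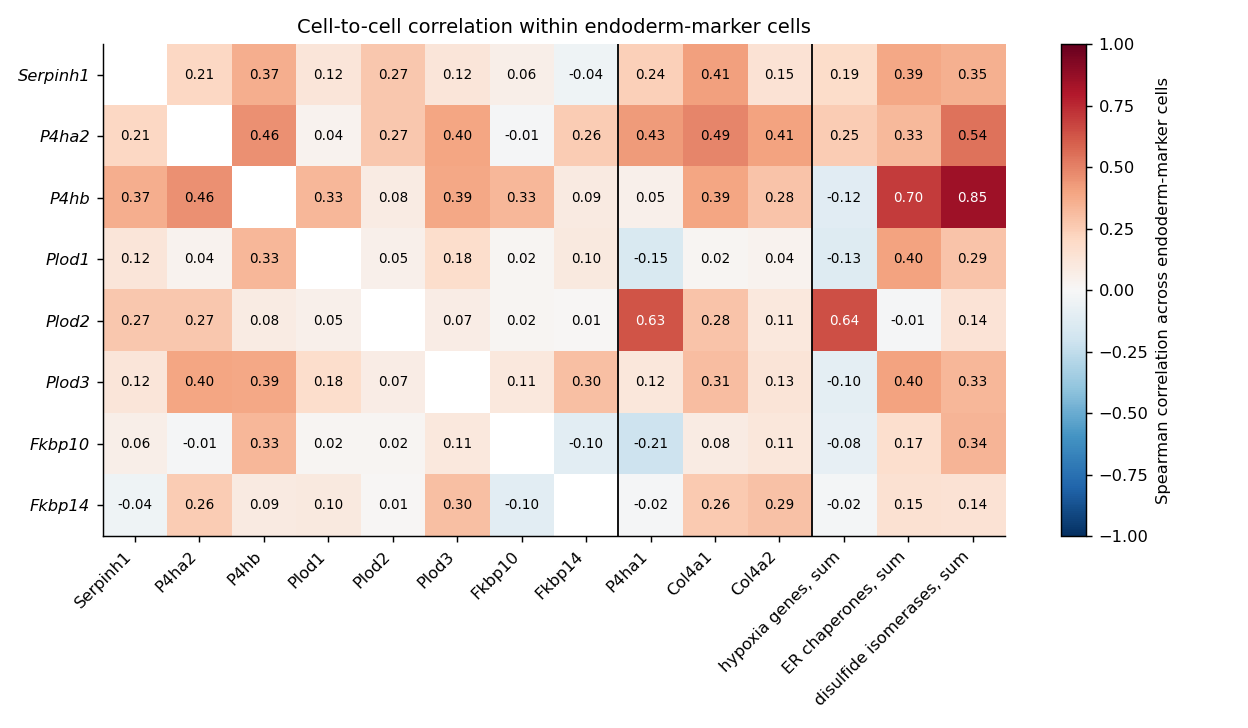
Spearman correlations across the 59 endoderm-marker cells, with the 8 members in rows and members, single collagen pathway genes and summed gene lists in columns; red is positive and blue negative. P4hb is darkest with the disulfide isomerases (0.85) and the ER chaperones (0.70), and Plod2 with the hypoxia genes (0.64) and P4ha1 (0.63).

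The genes most like each member were found by Spearman correlation over all kept cells of every class. P4ha2 was closest to Gata4 (0.70), 2200002D01Rik (0.67) and Sox17 (0.67), of which Gata4 and Sox17 also define the classes. P4hb was closest to 2200002D01Rik (0.67), Tinagl1 (0.67) and Gata4 (0.66), and Serpinh1 to 2200002D01Rik (0.66), Klf4 (0.65) and Gata4 (0.64). Plod2 was closest to Kdelr3 (0.64), which encodes a receptor that returns ER proteins, Bsg (0.63) and Tinagl1 (0.62). Plod3 was closest to Erp29 (0.50), Kdelr3 (0.49) and Crtap (0.49), and Fkbp10 to Nid2 (0.41), Ctsc (0.40) and Klf4 (0.40). Plod1 was closest to Slc44a3 (0.37), Pla2g12b (0.36) and Mme (0.36). Over all kept cells Fkbp14 had no gene above 0.26, its closest being Crip1 (0.26), Arhgap18 (0.25) and Msx2 (0.25). Values over all classes also carry the difference between classes. Across the 59 endoderm-marker cells alone, Serpinh1 was closest to Sec61g (0.49), P4ha2 to Kdelr3 (0.74) and P4hb to Pdia6 (0.75). There Plod1 was closest to Bicd2 (0.53), Plod2 to Ldha (0.65) and Plod3 to Tanc1 (0.57). Fkbp10 was closest to Selenbp1 (0.49) and Fkbp14 to Gm28285 (0.50) in those cells.

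The levels of several members were higher in cells with more endoderm markers. P4ha2 averaged 6.77 TPM in the kept cells with 0 endoderm markers, 7.79 TPM in the 100 cells with 1 or 2, 53.9 TPM in the 17 cells with 3 or 4, 166.002 TPM in the 36 cells with 5 or 6 and 180.4 TPM in the 73 cells with 7 to 10. Serpinh1 averaged 5.18, 4.56, 35.96, 63.4 and 49.9 TPM over the same steps, and Plod2 6.96, 8.64, 49.5, 88.7 and 89.6 TPM. Cells with 1 or 2 endoderm markers were thus close to those with 0. The step of 17 cells is thinly filled, and without it the next step up is from cells with 1 or 2 markers to cells with 5 or 6. Steps with 5 or more markers pool the endoderm-marker cells with the cells that had both marker sets, so they partly repeat the class contrast. In that order of classes the means were 228.4 and 113.4 TPM for P4ha2 and 73.1 and 32.2 TPM for Serpinh1. Within the neural class alone, Plod2 averaged 11.4 TPM in cells with any endoderm marker and 6.87 TPM in cells with none, and Serpinh1 5.42 and 5.28 TPM in that order.

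In the 50 cells with both marker sets, 7 of the 8 members were called higher than in neural-marker cells, where 10.2% of genes were higher and 0.240% lower. The exception was again P4hb, at 434.7 TPM in these cells and 133.1 TPM in neural-marker cells, 3.27-fold. Their Serpinh1 mean was 32.2 TPM, their P4ha2 mean 113.4 TPM and their Plod2 mean 54.2 TPM, which lie between the means of the endoderm-marker and neural-marker cells. Fkbp14 did not lie between: it was detected in 25 of these 50 cells (50%, 35.5 to 64.5) at a mean of 15.2 TPM. It was the only member called different between endoderm-marker cells and cells with both sets, being lower in endoderm-marker cells, where 11.9% of genes were lower and 0.0869% higher. By the 2-fold condition alone Serpinh1, P4ha2, Plod1, Plod2 and Fkbp10 were higher in endoderm-marker cells, as were 8.54% of genes. Cells with both sets had a median of 8110.5 genes above 0, against 6122 in endoderm-marker cells, and the correlation of Fkbp14 with the number of genes was 0.17 in endoderm-marker and 0.27 in neural-marker cells. The part of gene number, or of 2 cells in 1 capture site, in these values was not tested.

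Within the neural class, no member was called different in neurons. Neural-marker cells with at least 4 of 6 neuron genes (Nefl, Nefm, Stmn2, Mapt, Ina and Snap25) were set against the other neural-marker cells. By the rule of size 0 of the 8 members were higher and 0 lower in the neuron cells, where 6.98% of 12778 genes were higher and 1.35% lower. By the 2-fold condition alone 0 were higher and 1, Plod1, was lower, as were 7.24% of genes. Serpinh1 averaged 3.55 TPM in the neuron cells and 6.16 TPM in the others, P4hb 112.4 and 142.8 TPM, and Plod1 1.24 and 3.17 TPM in that order. The intervals of the detected shares overlapped for all 8 members.

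Endoderm-marker cells were also split by which list had more genes detected: parietal endoderm (Thbd, Pth1r, Plat, Vim, Srgn and Snai1) in 46 cells or visceral endoderm (Ttr, Afp, Apoa1, Apom, Rbp4 and Apob) in 6 cells, with 7 ties. In the list order, these genes were detected in 18.6%, 94.9%, 81.4%, 49.2%, 100% and 76.3% of endoderm-marker cells for the parietal list. For the visceral list the shares were 71.2%, 20.3%, 25.4%, 33.9%, 96.6% and 5.08%. The group sizes therefore depend on how widely each list was detected. Vim was called lower in endoderm-marker cells, being detected in 99.7% of neural-marker cells. P4ha2 ran from 10.01 to 916.8 TPM in parietal-leaning cells (median 210.3) and from 0 to 61.8 TPM in visceral-leaning cells (median 7.39). The 3 endoderm-marker columns that lacked P4ha2 were all visceral-leaning, and they hold 2 distinct cells. P4ha2 met the rule of size here, as did 0.0903% of 8857 genes higher in parietal-leaning cells, but it did not over distinct cells, where 40 and 5 cells remain, or within either column set. P4hb averaged 813.6 TPM in parietal-leaning and 807.8 TPM in visceral-leaning cells, with medians of 738.9 TPM and 530.4 TPM in that order. Serpinh1 averaged 71.5 TPM in parietal-leaning and 72.5 TPM in visceral-leaning cells. The 6 visceral-leaning columns hold 1 near-copy pair, which has high values of both genes. Over distinct cells P4hb averaged 829.2 TPM in parietal-leaning and 660.5 TPM in visceral-leaning cells, and Serpinh1 68.95 TPM and 58.7 TPM in that order.

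The near-copy columns show how far 1 cell's value can be trusted. P4hb was detected in both columns of 54 of the 55 pairs, and its log2(TPM + 1) values differed by a median of 0.10. P4ha2 was in both columns of 20 pairs, in neither of 31 and in only 1 column of 4, with a median difference of 0.21 where both had it. Serpinh1 was found in only 1 column of 8 pairs, at up to 13.7 TPM, and differed by a median of 0.59 where both had it. Plod1 was in both columns of 13 pairs and in neither of the other 42, with a median difference of 0.72. For Fkbp10 both columns had it in 5 pairs and only 1 column in 4, at up to 3.72 TPM.

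**Figure D5:**
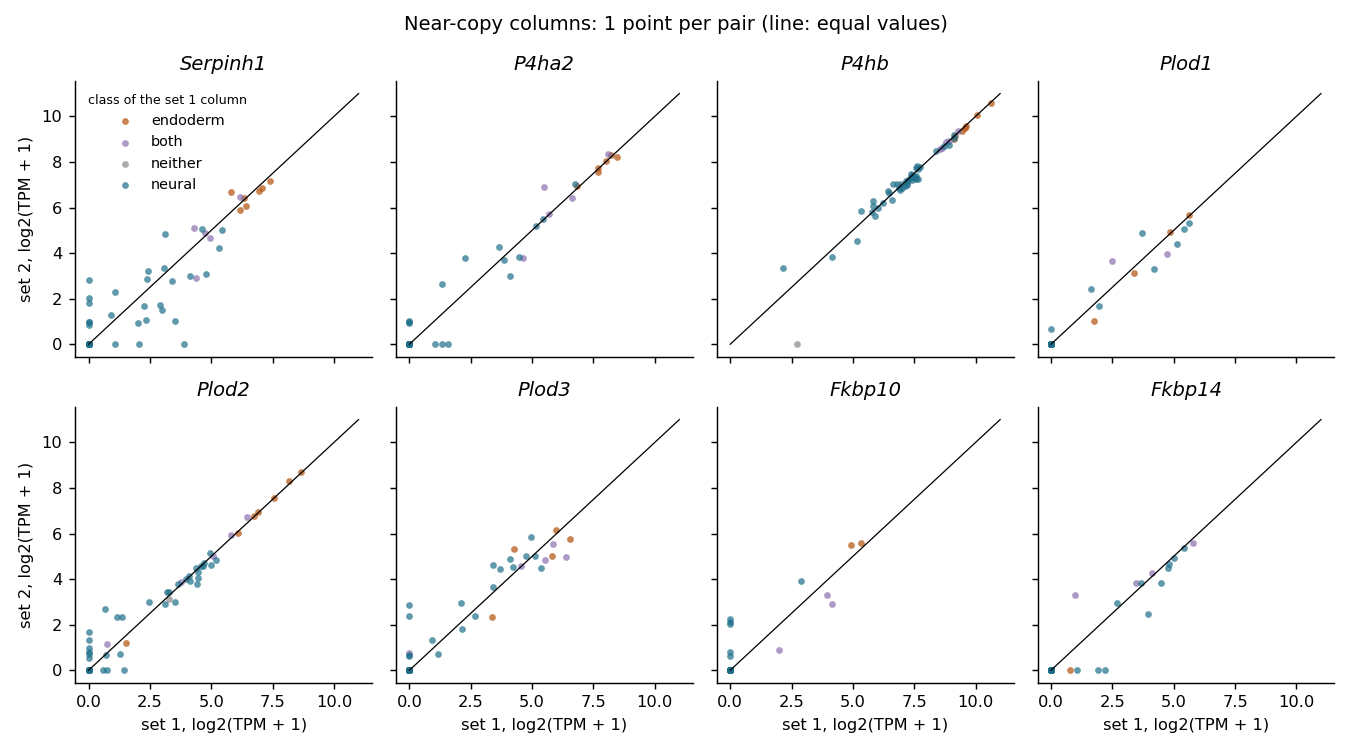
Each point is 1 of the 55 near-copy pairs, with log2(TPM + 1) of the set 1 column on the horizontal and of the set 2 column on the vertical axis; colours give the class of the set 1 column and the line marks equal values. P4hb and Plod2 lie close to the line, Serpinh1 scatters at low levels, and points on the axes are pairs in which only 1 column held the gene.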

How the data were processed

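Expression was measured in single cells captured on a Fluidigm C1 instrument, with SMART-Seq V4 cDNA and Nextera XT libraries per the labels' protocols, a full-length chemistry without molecular identifiers. Per the submitters' processing notes, the tools STAR and RSEM and the build mm10 lie behind the TPM values the authors deposited; no source used here gives versions, annotation or filters. The deposited table states no unit: TPM was inferred, because RSEM gives it and sums per cell ran from 54.2% to 95.1% of the full TPM total. TPM keeps no sequencing depth, so depth per cell is unknown and cells could not be thinned; the number of genes above 0 (2059 to 10256 in kept cells, median 6742.5) stood in for it. The header line runs on into the first gene's row and was split there. Column names match no single sample, and all samples carry 1 label.

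Means, detected shares (at 1 TPM or more) with exact Clopper-Pearson 95% intervals, and log2 ratios of mean TPM with 0.01 TPM added to each mean were computed with Python 3.11.15, numpy 2.4.6, pandas 2.3.3 and scipy 1.17.1. The code for the rule of size was run on simulated cells, in which only genes detected in a minority of cells were changed. No near copies were built in and no changed gene was as widely detected as P4hb, so such cases were not covered. Correlations are Spearman's over cells. Near copies were columns correlated at 0.93 or more over genes detected in at least 10 cells. All columns were kept in the main values. Doublets were not called, since callers need counts. There is 1 sample, so there are no tests. All 8 members are named; from each of 11 pathway lists up to 4 called genes with the highest means are named, and for each member the 3 most correlated genes. The members and lists were chosen with earlier results of these data known. Alternatives were other thresholds, class rules, cell subsets and scalings, and a difference of mean log2(TPM + 1) in place of the ratio of means. Of the genes that define the classes, 1 is not reported here by name.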

Additional observations from a re-analysis of the deposited data

How the results depend on the processing

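Each of the 6 called members stayed called, in the same direction, under all 18 alternatives (15 planned and 3 added after seeing the data), and P4hb was called under the 2-fold condition alone. Folds ran from 11.2 to 20.6 for Serpinh1, 30.3 to 70.1 for P4ha2, 5.38 to 7.16 for P4hb and 3.24 to 6.63 for Plod1. They ran from 11.96 to 17.4 for Plod2, 5.43 to 7.67 for Plod3 and 3.14 to 35.3 for Fkbp10. The ends 20.6, 70.1, 3.24, 7.67 and 3.14 came from the difference of mean log2(TPM + 1), which is not a ratio of means. By ratios of mean TPM these ends were 16.5 for Serpinh1, 53.02 for P4ha2, 4.11 for Plod1, 7.54 for Plod3 and 8.55 for Fkbp10. Scaling each cell by its broadly detected genes moved the median log2 fold of all genes by 0.22, and P4ha2 then had a log2 fold of 5.48. P4ha2 was called higher in parietal-leaning cells in the main values (1 member), but 0 members were with a class rule of 6 markers, over distinct cells, in column set 1 or 2 alone, or with 5000 to 8000 genes, which leave 2 to 5 visceral-leaning cells, and 4 were by the 2-fold condition alone (as were 24.9% of genes), which also called 1 member lower in neuron cells. The 7 pathway genes called lower became 4 in set 1, 3 in set 2, 4 with 5000 to 8000 genes, 2 by the difference of mean log2(TPM + 1), 14 by 2-fold alone and 1 where detection meant a rank in the top 4000 genes; the 23 called higher became 38 by 2-fold alone. Member values found in only 1 column of a near-copy pair were 31, and 20 at 5 TPM. The cause was not tested. No paired analysis was possible because all samples carry 1 label and there is no second group. With depth unknown, the absence of a low gene from a cell cannot be told from a missed one.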
